A study of Homo sapiens with 8 samples.

Results

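The genes described here are 33 enzymes of cholesterol and fatty acid synthesis, 19 of the sterol branch and 14 of the fatty acid branch. They were chosen by gene symbol, and each symbol was matched through GENCODE release 29 to a row of the deposited table, which holds 58787 Ensembl gene identifiers. All 33 were found, and all 33 passed the filter on low counts. Polyadenylated RNA was sequenced from IMR32, an established human neuroblastoma line with amplified MYCN that the labels give as wild type. One group of 4 libraries received CR31B at its IC50, the other group of 4 received the vehicle, 0.1% DMSO, and the time point given is 6 h. The concentration of CR31B is not given in the sources used here. CR31B is a rocaglate, a compound class that clamps the RNA helicase eIF4A onto messenger RNA and blocks translation initiation. The design gives a single cell line, dose and time point, and the libraries of both groups with replicate number 1 were run paired-end while the other 6 were run single-end.

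Cells build cholesterol from acetyl-CoA. The mevalonate pathway makes isoprenoid units, which are joined to squalene, closed to the sterol ring by lanosterol synthase and trimmed to cholesterol by a series of oxidases, reductases and isomerases. Fatty acids start from the same acetyl-CoA, are built by acetyl-CoA carboxylase and fatty acid synthase, and are then desaturated, elongated, activated to acyl-CoA and placed into glycerolipids. Genes of both branches are textbook targets of the SREBP transcription factors, SREBP2 acting mostly on the sterol branch and SREBP1 mostly on the fatty acid branch. SREBPs are held in the endoplasmic reticulum by INSIG proteins when sterols are plentiful.

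Total counts were 43687828 to 64715535 per library. All 10 adrenergic neuroblastoma markers were above 1 CPM (TMM-normalised counts scaled to library size) in every library, with TH lowest at 1.77 to 3.03 CPM. Of 9 stromal and Schwann cell markers COL1A1 (16.6 to 30.6 CPM) and PDGFRB (11.4 to 17.9 CPM) were above 1 CPM throughout, 5 were below 1 CPM throughout and SOX10 was listed at 0. Their summed level was 33.2 to 50.4 CPM in the CR31B libraries and 32.3 to 43.6 CPM in the DMSO libraries. The 5 endothelial and immune markers were below 1 CPM in every library, CD68 was listed at 0, and their sums were 0.449 to 1.1 CPM and 0.551 to 1.2 CPM in the same order. In replicates 2 to 4, 4 neuroblastoma markers rose and 4 fell, 1 of 5 tested stromal markers rose and both tested endothelial and immune markers fell (edgeR, adjusted p under 0.05). Of all tested genes 23.8% rose and 17.6% fell by the same test. The part of these marker shifts in the results below was not tested.

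The libraries with replicate number 1 stood apart from their labels. In the library labelled CR31B replicate 1, 27 of the 33 genes lay nearer to the DMSO mean of replicates 2 to 4 than to their CR31B mean. In the library labelled DMSO replicate 1, 25 of 33 lay nearer to that CR31B mean. These counts were not made over all tested genes, of which 84% had in replicate 1 the sign opposite to replicates 2 to 4. Paired-end sequencing and replicate 1 are the same libraries, so layout and replicate cannot be told apart. Results are therefore led by the 3 same-numbered single-end pairs (replicates 2 to 4). Replicate 1 is shown apart for the main members, and the test of all 8 libraries as labelled is given for the 33 genes together. Directions follow the labels of replicates 2 to 4, for which the deposited counts give no independent check. The series text speaks of biological replicates, but no source used here says which libraries came from separate cultures, so the p-values measure the spread between these libraries.

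Promoter sequences are shown for genes on either side of the main contrast. HMGCS1, MSMO1 and HSD17B7 had the largest falls of the sterol branch, NSDHL is a sterol enzyme that did not pass the test, SCD fell in the fatty acid branch and ELOVL6 rose there. The stretches lie upstream of the first RefSeq start listed for each gene (build GRCh38.p14) and touch no annotated exon. They are HMGCS1 at chr5:43313513-43313662 (minus strand), MSMO1 at chr4:165327419-165327622 (plus), HSD17B7 at chr1:162790452-162790701 (plus), NSDHL at chrX:152830813-152830966 (plus), SCD at chr10:100346983-100347123 (plus) and ELOVL6 at chr4:110198677-110198841 (minus). Capitals mark CCAAT on either strand (ATTGG is its reverse complement), the letters read by the factor NF-Y, and in MSMO1 also TCACNCCA, letters of a sterol regulatory element.
HMGCS1: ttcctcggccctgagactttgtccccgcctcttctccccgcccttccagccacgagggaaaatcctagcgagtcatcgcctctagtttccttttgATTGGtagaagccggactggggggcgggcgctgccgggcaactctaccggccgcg
MSMO1: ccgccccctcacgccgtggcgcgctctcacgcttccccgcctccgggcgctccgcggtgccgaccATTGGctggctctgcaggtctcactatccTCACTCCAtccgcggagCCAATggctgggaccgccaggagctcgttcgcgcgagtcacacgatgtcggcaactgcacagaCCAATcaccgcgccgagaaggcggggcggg
HSD17B7: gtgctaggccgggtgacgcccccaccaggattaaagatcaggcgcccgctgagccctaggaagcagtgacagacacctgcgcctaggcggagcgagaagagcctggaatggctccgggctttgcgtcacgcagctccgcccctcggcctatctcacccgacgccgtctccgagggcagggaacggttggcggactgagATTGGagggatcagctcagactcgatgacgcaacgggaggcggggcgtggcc
NSDHL: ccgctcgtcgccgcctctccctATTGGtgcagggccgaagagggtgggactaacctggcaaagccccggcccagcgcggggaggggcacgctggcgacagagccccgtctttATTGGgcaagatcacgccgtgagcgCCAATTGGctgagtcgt
SCD: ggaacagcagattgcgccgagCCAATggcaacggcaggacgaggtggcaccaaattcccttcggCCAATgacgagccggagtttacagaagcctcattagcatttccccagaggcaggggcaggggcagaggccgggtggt
ELOVL6: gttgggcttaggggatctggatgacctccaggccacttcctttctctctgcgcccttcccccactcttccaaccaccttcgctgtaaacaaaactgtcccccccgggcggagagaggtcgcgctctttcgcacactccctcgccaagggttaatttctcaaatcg
Over the 250 bases before the start, on both strands, 29 of the 33 genes had a RefSeq promoter. ACAT2, FDFT1, SQLE and FASN were not matched. CCAAT occurred in 12 of 16 sterol promoters (75%) and 6 of 13 fatty acid promoters (46.2%), and in 33% of all 27305 promoters in the table. At least 2 copies were found in 8 of 16 sterol promoters (50%), 3 of 13 fatty acid promoters (23.1%) and 10% of all promoters. Among 11440 promoters of genes tested in replicates 2 to 4, 34.7% held CCAAT and 12.8% at least 2 copies. MVK and NSDHL held 5 copies each and MSMO1 held 4. TCACNCCA was found in MVK and MSMO1 alone among the 29, against 3.2% of all promoters and 2.6% of those of tested genes. CACGTG, the E-box, was found in SC5D and ELOVL5, against 6.5% of all promoters and 8.8% of those of tested genes. The CCAAT letters did not separate sterol genes by their response: 7 of 9 sterol promoters of genes that fell held them and 5 of 7 of those that did not pass. Among fatty acid genes 2 of 5 that fell, 0 of 3 that rose and 4 of 5 that did not pass held CCAAT. These matches describe the letters in this window and are not binding sites.

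In replicates 2 to 4 the sterol branch was lower with CR31B, and the fatty acid branch held calls in both directions. Of 19 sterol enzymes 11 fell and 0 rose, and of 14 fatty acid enzymes 6 fell and 3 rose, by edgeR's quasi-likelihood test with Benjamini-Hochberg adjustment over 16696 genes, at a threshold of 0.05. Of all tested genes 41.3% passed in these libraries, 17.6% lower and 23.8% higher with CR31B. The fatty acid rises (3 of 14) were thus near the share of all tested genes that rose. The fatty acid falls (6 of 14) were above the share that fell. The median log2 fold change of CR31B over DMSO was -0.41 for the sterol branch (range -1.25 to 0.06) and -0.10 for the fatty acid branch (range -0.63 to 0.44), beside -0.01 for all tested genes. For the count of 0 sterol enzymes higher, 0 also had an unadjusted p under 0.05, and DESeq2 and limma voom gave 0 as well. HSD17B7, MSMO1 and HMGCS1 were the 3 members that changed at least 2-fold. Without the library of CR31B replicate 3 the fatty acid median was -0.00974 and the sterol median -0.32. These are bulk libraries, in which fewer cells and less RNA per cell cannot be told apart.

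**Figure D1:**
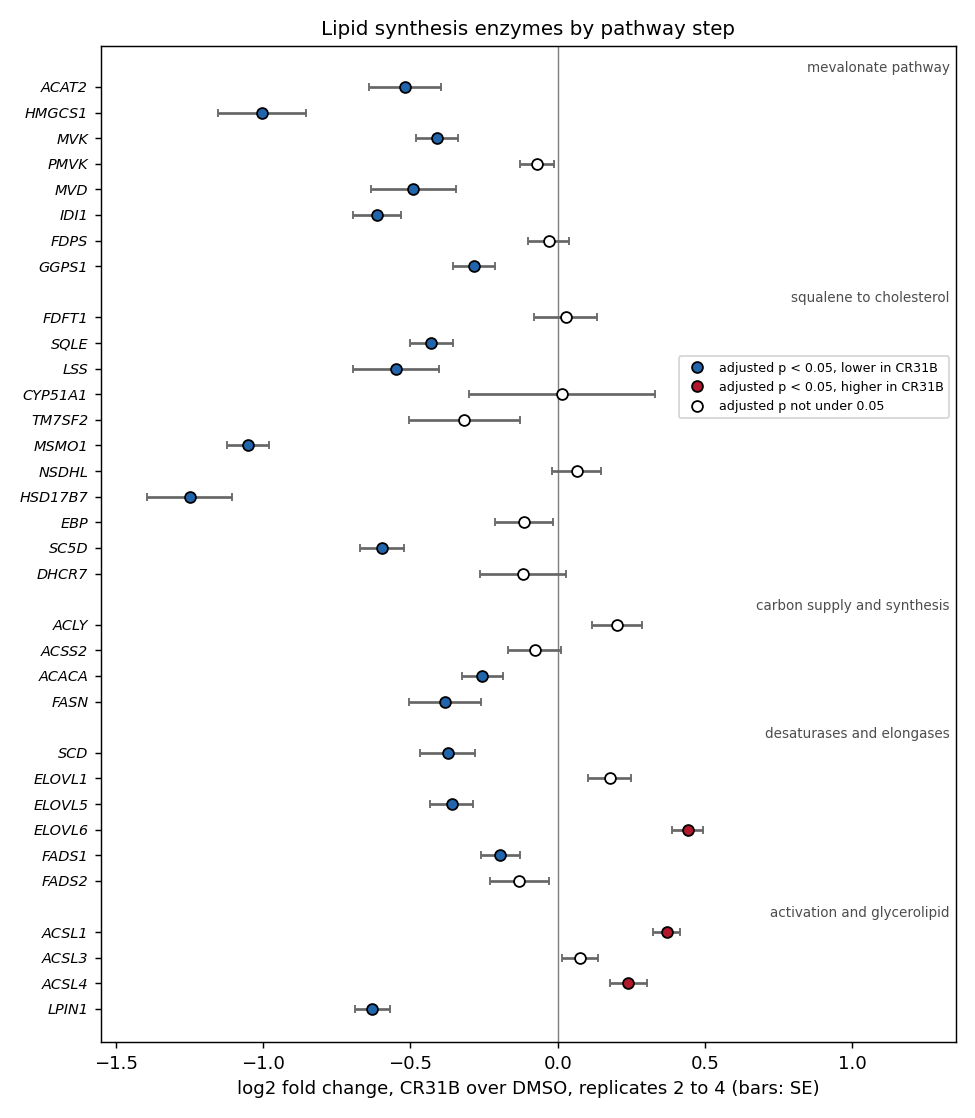
Log2 fold change of CR31B over DMSO in replicates 2 to 4 for the 33 enzymes, grouped by pathway step; points are edgeR estimates, bars are standard errors and colour gives the call at an adjusted p under 0.05. Sterol enzymes run from -1.25 to 0.06 with 11 called lower, and fatty acid enzymes from -0.63 to 0.44 with 6 called lower and 3 called higher.

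With the labels of all 8 libraries, 0 of the 33 genes had an adjusted p under 0.05 (edgeR, 8 libraries, layout as covariate) and 0 had an unadjusted p under 0.05. DESeq2 and limma voom also gave 0 members. Leaving out the library labelled CR31B replicate 1 gave 20 members, and leaving out that labelled DMSO replicate 1 also gave 20. The background in that comparison was 0% of 16518 tested genes, with 205 at an unadjusted p under 0.05. The members' adjusted p ran from 0.707 to 0.998 and their log2 fold changes from -0.67 to 0.26, with medians of -0.18 for the sterol and -0.06 for the fatty acid branch. For 0 of the 33 genes did the 4 CR31B and 4 DMSO libraries not overlap; over all genes this was so for 0.363% with CR31B below and 0.297% with CR31B above.

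The mevalonate pathway supplies isoprenoid units, and 6 of its 8 enzymes fell, with a median log2 fold change of -0.45. By the same test 17.6% of all tested genes fell. HMGCS1 makes HMG-CoA from acetyl-CoA and acetoacetyl-CoA (ENSG00000112972, chromosome 5, 43289395 to 43313512, minus strand). It had 146, 85.6 and 119 CPM in CR31B replicates 2, 3 and 4 and 223, 245 and 237 CPM in the matching DMSO libraries. Every single-end CR31B library was thus below every single-end DMSO library, and CR31B replicate 3 was the lowest. The means were 117 ± 30.3 and 235 ± 11.3 CPM (SD, n = 3), and the log2 fold change was -1.0 ± 0.15 (SE), 50.1% lower, with an adjusted p of 0.000392 (edgeR). The pair of replicate 1 read 244 CPM where labelled CR31B and 117 CPM where labelled DMSO, which is a log2 difference of 1.07. The library labelled CR31B replicate 1 lay within the range of the single-end DMSO libraries, and that labelled DMSO replicate 1 within the range of the single-end CR31B libraries.

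IDI1, the isomerase that converts isopentenyl into dimethylallyl diphosphate (chromosome 10, 1039152 to 1049170, minus strand), had 125, 98.1 and 120 CPM in CR31B replicates 2 to 4. In the DMSO libraries it had 173, 180 and 171 CPM. The groups did not overlap, and the DMSO libraries were close together while CR31B replicate 3 was again lowest. The means of 114 ± 14.1 and 175 ± 4.78 CPM (SD, n = 3) gave a log2 fold change of -0.61 ± 0.08 (SE), 34.6% lower, with an adjusted p of 0.000179 (edgeR). Replicate 1 had 172 CPM in the library labelled CR31B and 119 CPM in that labelled DMSO.

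Of the other mevalonate enzymes ACAT2, the cytosolic thiolase that opens the pathway, fell by 0.52 on the log2 scale (adjusted p 0.00678, edgeR). MVK, mevalonate kinase, fell by 0.41 with tight replicates, 14, 13.4 and 13.5 CPM against 17.7, 19.1 and 17.5 CPM (adjusted p 0.00116, edgeR). MVD, the decarboxylase, fell by 0.49 (adjusted p 0.0196, edgeR), from 12.3 ± 0.326 to 8.78 ± 2.01 CPM (SD, n = 3). That call was lost without DMSO replicate 2 (adjusted p 0.0519) and without DMSO replicate 4 (adjusted p 0.0566; edgeR for both), and without CR31B replicate 3 the log2 fold change was -0.32 (adjusted p 0.0229, edgeR). GGPS1, which makes geranylgeranyl diphosphate for protein prenylation, fell by 0.28 (adjusted p 0.00908, edgeR), but 37.3% of its exonic bases lie in exons of another gene on its strand, so its count is uncertain. The log2 fold change of PMVK, phosphomevalonate kinase, was -0.07 ± 0.06 (SE) and that of FDPS, farnesyl diphosphate synthase, -0.03 ± 0.07 (SE). Both missed the threshold, with adjusted p of 0.371 and 0.758 (edgeR). Within the 8 mevalonate enzymes the log2 fold changes thus ran from -1.0 for HMGCS1 to -0.03 for FDPS. ACAT2 shares 52.3% of its exonic bases with genes on the opposite strand, and the strand setting of the counting is not stated beyond the word reverse in the name of the deposited table.

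From squalene to cholesterol 5 of 11 enzymes fell, against 17.6% of all tested genes, with a median of -0.32. HSD17B7 is the ketoreductase of the removal of the C4 methyl groups (ENSG00000132196, chromosome 1, 162790702 to 162812817, plus strand). It had 8.81, 5.64 and 7.75 CPM in CR31B replicates 2 to 4 and 19.5, 17.1 and 16.1 CPM in DMSO replicates 2 to 4. None of these single-end CR31B libraries came near the range of the single-end DMSO libraries. The means were 7.4 ± 1.61 and 17.6 ± 1.73 CPM (SD, n = 3), a log2 fold change of -1.25 ± 0.15 (SE), 57.9% lower, with an adjusted p of 8.06e-05 (edgeR). In replicate 1 the order was opposite, 21.1 CPM in the library labelled CR31B and 8.77 CPM in that labelled DMSO. HSD17B7P2, an annotated pseudogene copy, had 0.471 to 1.56 CPM and a log2 fold change of -1.18 ± 0.21 (SE), and how reads common to both were counted is not given.

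MSMO1, the oxidase that starts C4 demethylation (chromosome 4, 165327623 to 165343160, plus strand), had 58.5, 56.2 and 62.8 CPM in CR31B replicates 2 to 4. In DMSO replicates 2 to 4 it had 130, 127 and 111 CPM. Here CR31B replicate 3 was hardly lower than the other libraries of its group, and the groups were far apart. The means of 59.2 ± 3.37 and 123 ± 10.6 CPM (SD, n = 3) gave a log2 fold change of -1.05 ± 0.07 (SE), 51.7% lower, with an adjusted p of 2.83e-06 (edgeR), the smallest of the 33 genes. Replicate 1 had 154 CPM in the library labelled CR31B and 73.9 CPM in that labelled DMSO. NSDHL, which acts between MSMO1 and HSD17B7 in the same demethylation, had 26.5, 24.1 and 23.2 CPM with CR31B and 21.2, 25.6 and 23.8 CPM with DMSO. Its groups overlapped, with a log2 fold change of 0.06 ± 0.08 (SE) and an adjusted p of 0.572 (edgeR).

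SC5D, the lathosterol oxidase (chromosome 11, 121292453 to 121308694, plus strand), had 36.8, 30.7 and 37.2 CPM in CR31B replicates 2 to 4. The DMSO libraries had 51.9, 54.3 and 52.2 CPM, so the groups did not overlap. SC5D was 33.9% lower (adjusted p 0.000131, edgeR), which is -0.60 ± 0.07 (SE) as a log2 fold change. LSS, lanosterol synthase, which closes the ring (chromosome 21, 46188141 to 46228824, minus strand), had 85.6, 52.1 and 75.1 CPM with CR31B and 108, 93 and 111 CPM with DMSO. All 3 CR31B libraries were below the DMSO libraries, and CR31B replicate 3 carried the widest gap. The log2 fold change was -0.55 ± 0.15 (SE), 31.7% lower, with an adjusted p of 0.0123 (edgeR). In replicate 1 the libraries labelled CR31B and DMSO had 57.8 and 38.8 CPM for SC5D and 101 and 72.2 CPM for LSS.

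SQLE, squalene epoxidase, a rate-controlling step of the late pathway, fell by 0.43 on the log2 scale, from 260 ± 6.93 to 193 ± 20.6 CPM (SD, n = 3), with an adjusted p of 0.000967 (edgeR). FDFT1, squalene synthase, had 0.03 ± 0.11 (SE), EBP, the sterol isomerase, -0.11 ± 0.10 and DHCR7, the last reductase of one arm, -0.12 ± 0.15. None of these 3 passed (adjusted p of 0.86, 0.39 and 0.56, edgeR), and without CR31B replicate 3 DHCR7 was 0.07. TM7SF2, a sterol C14 reductase, had -0.32 ± 0.19 (SE) with an adjusted p of 0.206, and -0.31 with a replicate block (adjusted p 0.00298, edgeR for both). Single libraries moved TM7SF2, to -0.09 without DMSO replicate 2, -0.18 without CR31B replicate 3 and -0.505 without CR31B replicate 2 (adjusted p 0.0489 in the last, edgeR). CYP51A1, the C14 demethylase, was listed at 0.21 to 0.448 CPM in the single-end libraries, with a log2 fold change of 0.01 ± 0.31 (SE) and an adjusted p of 0.975 (edgeR). Of its exonic bases 79.4% lie in exons of other identifiers on its strand, which were listed at 0 counts in all 8 libraries, and the 2 annotated pseudogene copies that passed the count filter had 0.172 to 1.03 CPM. Its level is therefore uncertain, and no difference was detectable at its 11 to 21 counts per library. It stays in the sterol counts and median as an enzyme that did not pass.

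**Figure D2:**
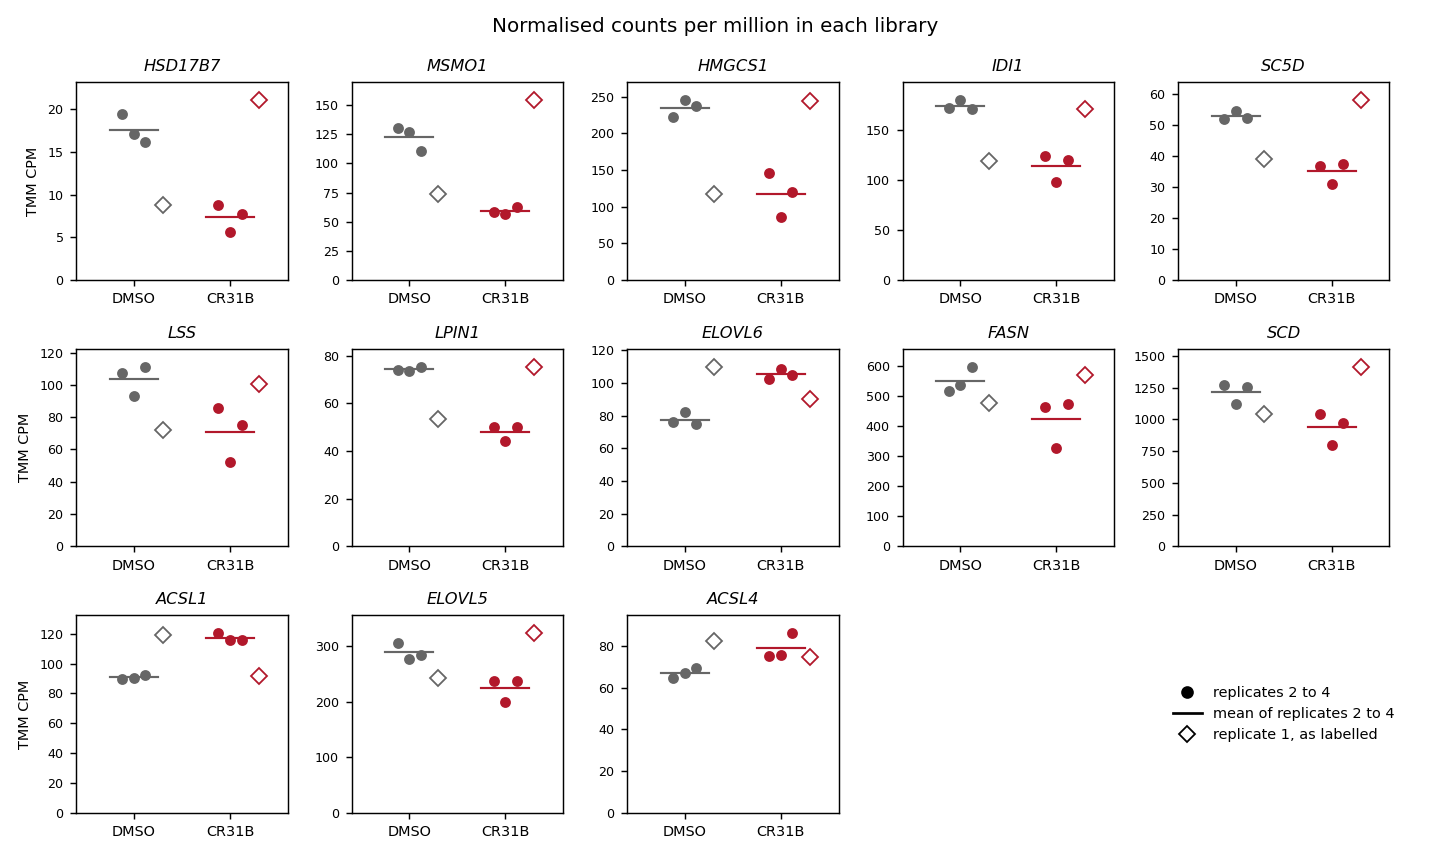
TMM-normalised CPM in each library for the enzymes chosen by the naming rule, 1 panel a gene with its own axis from 0; filled points are replicates 2 to 4, lines their means and open diamonds replicate 1 as labelled. In HMGCS1, MSMO1 and HSD17B7 the filled CR31B points lie below the filled DMSO points and the diamonds stand in the opposite order.

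In the fatty acid branch 2 of 4 enzymes of carbon supply and chain synthesis fell, beside 17.6% of all tested genes. FASN, fatty acid synthase (chromosome 17, 82078333 to 82098332, minus strand), had 465, 327 and 475 CPM in CR31B replicates 2 to 4 and 518, 537 and 598 CPM in the DMSO libraries. The groups did not overlap, although CR31B replicate 3 was far below the other CR31B libraries. The means were 422 ± 82.4 and 551 ± 41.4 CPM (SD, n = 3), a log2 fold change of -0.38 ± 0.12 (SE), 23.3% lower, with an adjusted p of 0.0288 (edgeR). Without DMSO replicate 4 it was -0.31 with an adjusted p of 0.102, and without CR31B replicate 3 it was -0.23 with an adjusted p of 0.0187 (edgeR). In replicate 1 FASN had 571 CPM where labelled CR31B and 479 CPM where labelled DMSO. ACACA, acetyl-CoA carboxylase, fell by 0.26 (adjusted p 0.0125, and 0.0529 without DMSO replicate 4, edgeR), and with GC and length offsets it was -0.39. ACLY, which makes cytosolic acetyl-CoA from citrate for both branches, had 606, 494 and 600 CPM with CR31B and 462, 483 and 535 CPM with DMSO. ACLY, with a log2 fold change of 0.20 ± 0.08 (SE), missed the threshold (adjusted p 0.0799) and passed it with replicate number as a block (0.0167, edgeR for both). It also passed without CR31B replicate 3 (0.29, adjusted p 0.00458) and without DMSO replicate 4 (0.27, adjusted p 0.0413; edgeR). ACSS2, the acetate-using synthetase, had -0.08 ± 0.09 (SE) with an adjusted p of 0.52 (edgeR).

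Among desaturases and elongases 3 of 6 fell and 1 rose, where 17.6% of all tested genes fell and 23.8% rose. SCD, the stearoyl-CoA desaturase that makes monounsaturated chains (chromosome 10, 100347124 to 100364834, plus strand), had 1044, 798 and 975 CPM in CR31B replicates 2 to 4. In the DMSO libraries it had 1272, 1123 and 1256 CPM, above all 3 CR31B libraries. The log2 fold change was -0.37 ± 0.09 (SE), 22.8% lower, with an adjusted p of 0.00891 (edgeR). ELOVL5, the elongase of polyunsaturated chains (chromosome 6, 53267398 to 53349179, minus strand), had 238, 198 and 237 CPM with CR31B and 305, 276 and 284 CPM with DMSO. Those groups did not overlap either, and the log2 fold change was -0.36 ± 0.07 (SE), 22.1% lower, with an adjusted p of 0.00309 (edgeR). In replicate 1 SCD had 1414 and 1039 CPM and ELOVL5 323 and 242 CPM in the libraries labelled CR31B and DMSO.

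ELOVL6, the elongase of saturated and monounsaturated chains from palmitate (chromosome 4, 110045846 to 110199199, minus strand), went the other way. It had 102, 109 and 105 CPM in CR31B replicates 2 to 4 and 76.2, 82.2 and 74.8 CPM in the DMSO libraries. Every CR31B library of these pairs was above every DMSO library, CR31B replicate 3 being the highest. The means of 105 ± 3.05 and 77.7 ± 3.92 CPM (SD, n = 3) gave a log2 fold change of 0.44 ± 0.05 (SE), 1.36-fold higher, with an adjusted p of 0.000103 (edgeR). With GC and length offsets ELOVL6 was 0.27 (adjusted p 0.00251, edgeR). Replicate 1 had 90.4 CPM in the library labelled CR31B and 110 CPM in that labelled DMSO.

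The fatty acid desaturases FADS1 and FADS2 act in the same polyunsaturated pathway as ELOVL5. FADS1 had 534, 474 and 524 CPM with CR31B and 621, 545 and 588 CPM with DMSO, and fell by 0.19 on the log2 scale (adjusted p 0.0373, edgeR). The FADS1 call was lost without DMSO replicate 2, CR31B replicate 3, CR31B replicate 4 or DMSO replicate 4, with an adjusted p of 0.135, 0.0967, 0.0664 and 0.107 in that order (edgeR), and with GC and length offsets its value was -0.30. FADS2 had -0.13 ± 0.10 (SE), with an adjusted p of 0.329, and 0.0305 with the replicate block (edgeR). Without CR31B replicate 3 FADS2 was -0.01, with an adjusted p of 0.914 (edgeR). ELOVL1, the elongase of very long chains, had 27.5, 31.1 and 27.4 CPM with CR31B and 24.4, 27.1 and 24.6 CPM with DMSO. Its log2 fold change of 0.18 ± 0.07 (SE) had an adjusted p of 0.0779, of 0.0132 with the block and of 0.017 with GC and length offsets (edgeR).

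Of 4 enzymes that activate fatty acids or build glycerolipids 1 fell and 2 rose, where 17.6% of all tested genes fell and 23.8% rose. LPIN1, a phosphatidate phosphatase that makes diacylglycerol and is also a transcriptional coregulator (chromosome 2, 11677595 to 11827409, plus strand), had 50.04, 44.1 and 49.9 CPM in CR31B replicates 2 to 4. The DMSO libraries had 74.0, 73.7 and 75.3 CPM, so the groups were far apart and the DMSO values nearly equal. The log2 fold change was -0.63 ± 0.06 (SE), 35.4% lower, with an adjusted p of 2.02e-05 (edgeR), the largest fall of the fatty acid branch. Replicate 1 had 75.1 CPM in the library labelled CR31B and 53.6 CPM in that labelled DMSO. ACSL1, a long-chain acyl-CoA synthetase (chromosome 4, 184755595 to 184826818, minus strand), had 120, 116 and 116 CPM with CR31B and 89.8, 90.2 and 92.4 CPM with DMSO. It was higher in each CR31B library of these pairs, with a log2 fold change of 0.37 ± 0.05 (SE), 1.29-fold, and an adjusted p of 0.000124 (edgeR). In replicate 1 it was 92.0 CPM in the library labelled CR31B and 119 CPM in that labelled DMSO.

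ACSL4, the synthetase that prefers arachidonate (chromosome X, 109624244 to 109733403, minus strand), had 75.3, 75.7 and 86.1 CPM in CR31B replicates 2 to 4 and 64.4, 66.9 and 69.5 CPM in DMSO. The groups did not overlap, and CR31B replicate 4 was the highest. The log2 fold change of 0.24 ± 0.06 (SE), 1.18-fold, had an adjusted p of 0.0114, but 0.0599 with upper quartile scaling and 0.376 with GC and length offsets, where the value was 0.08 (edgeR). In replicate 1 ACSL4 had 74.5 CPM where labelled CR31B and 82.6 CPM where labelled DMSO. ACSL3 had 0.08 ± 0.06 (SE) and an adjusted p of 0.364 (edgeR).

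Scaled by exonic length, SCD was the most abundant of the 33 transcripts. Its mean level in the single-end DMSO libraries was 227 CPM per kb, and 175 CPM per kb in the CR31B libraries. ACLY came next with 94.5 CPM per kb in DMSO and 109 in CR31B. Within the sterol branch SQLE and FDPS were highest in DMSO at 60.4 CPM per kb each, followed by HMGCS1 at 49.9 and ACAT2 at 48.9. With CR31B the level of FDPS was 59.0 CPM per kb, that of SQLE 44.8, of ACAT2 34.1 and of HMGCS1 24.9. HSD17B7 was among the low transcripts, at 3.68 CPM per kb in DMSO and 1.55 in CR31B.

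The branches were next compared within each library. The mean log2 CPM over the 19 sterol enzymes was 5.42, 5.36 and 5.37 in DMSO replicates 2 to 4 and 5.10, 4.77 and 5.03 in CR31B replicates 2 to 4. Over the 14 fatty acid enzymes it was 7.27, 7.26 and 7.30 in DMSO and 7.27, 7.08 and 7.28 in CR31B. The sterol mean was lower in every CR31B library of these pairs than in any DMSO library, while the fatty acid means lay together apart from CR31B replicate 3. The difference of CR31B from DMSO was -0.32, -0.59 and -0.35 for the sterol mean in replicates 2, 3 and 4. Subtracted from the fatty acid difference of the same pair, it left 0.32, 0.41 and 0.32. In replicate 1 the sterol mean was 5.50 in the library labelled CR31B and 5.05 in that labelled DMSO, and the fatty acid minus sterol difference was -0.39. These branch values describe genes chosen with earlier results of these data known, so no p is given for them.

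**Figure D3:**
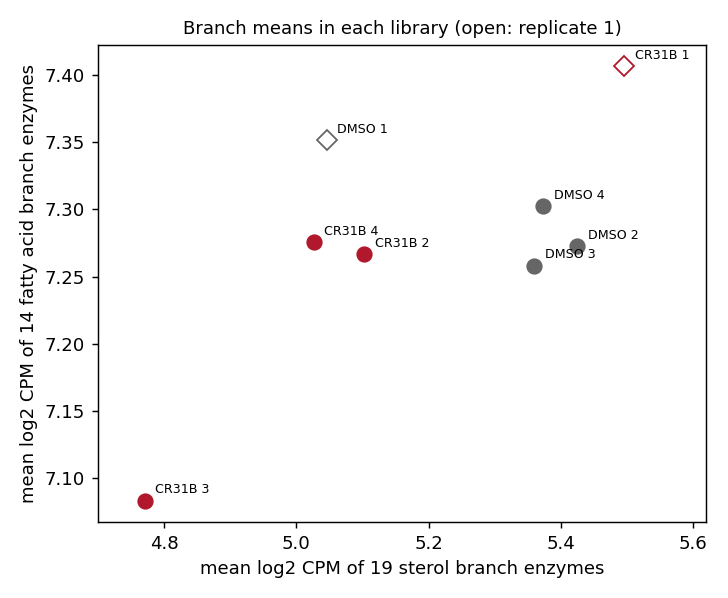
Mean log2 CPM of the 14 fatty acid enzymes against that of the 19 sterol enzymes, 1 point a library, coloured by group, with replicate 1 open. DMSO replicates 2 to 4 lie at 5.36 to 5.42 on the sterol axis and CR31B replicates 2 to 4 at 4.77 to 5.10, while in replicate 1 the library labelled CR31B lies at 5.50 and that labelled DMSO at 5.05.

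Summed over the branch, sterol transcripts were 1799, 1739 and 1785 CPM in DMSO replicates 2 to 4 and 1494, 1110 and 1346 CPM in CR31B replicates 2 to 4. The sum fell by 16.9%, 36.1% and 24.6% in these pairs. The fatty acid sum fell by 6.3%, 18.6% and 10%. In replicate 1 the sums of the library labelled CR31B were 38.8% higher for the sterol branch and 14.8% higher for the fatty acid branch. CR31B replicate 3 was the lowest of the 3 single-end CR31B libraries in 25 of the 33 genes, and its pair had the largest absolute difference in 20 of 33. Neither count was made over all tested genes, so they may describe the library and not these enzymes.

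Within pairs, 26 of the 33 genes had the same sign in replicates 2, 3 and 4, 21 lower and 5 higher. This was not counted over all tested genes. In 18 genes all single-end CR31B libraries were below all DMSO libraries, 12 of them sterol enzymes, and in 4 fatty acid genes they were all above. Over all tested genes such groups were found for 24.4% below and 27.7% above. In replicate 1 the sign was opposite to the fold change of replicates 2 to 4 in 30 of 33 genes, the exceptions being PMVK, ACSS2 and CYP51A1, and 84% of all tested genes were opposite. All 20 members called in replicates 2 to 4 were among the 30. The difference between replicate 1 and the other pairs was tested as an interaction of treatment with layout, which passed for 19 of the 33 genes at adjusted p from 2.9e-06 to 0.0394 (edgeR), against 42.5% of all tested genes. As each group has 1 paired-end library, the single-end libraries alone supply the spread for this test. FASN was the called member that missed it, with an adjusted p of 0.058 (edgeR).

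**Figure D4:**
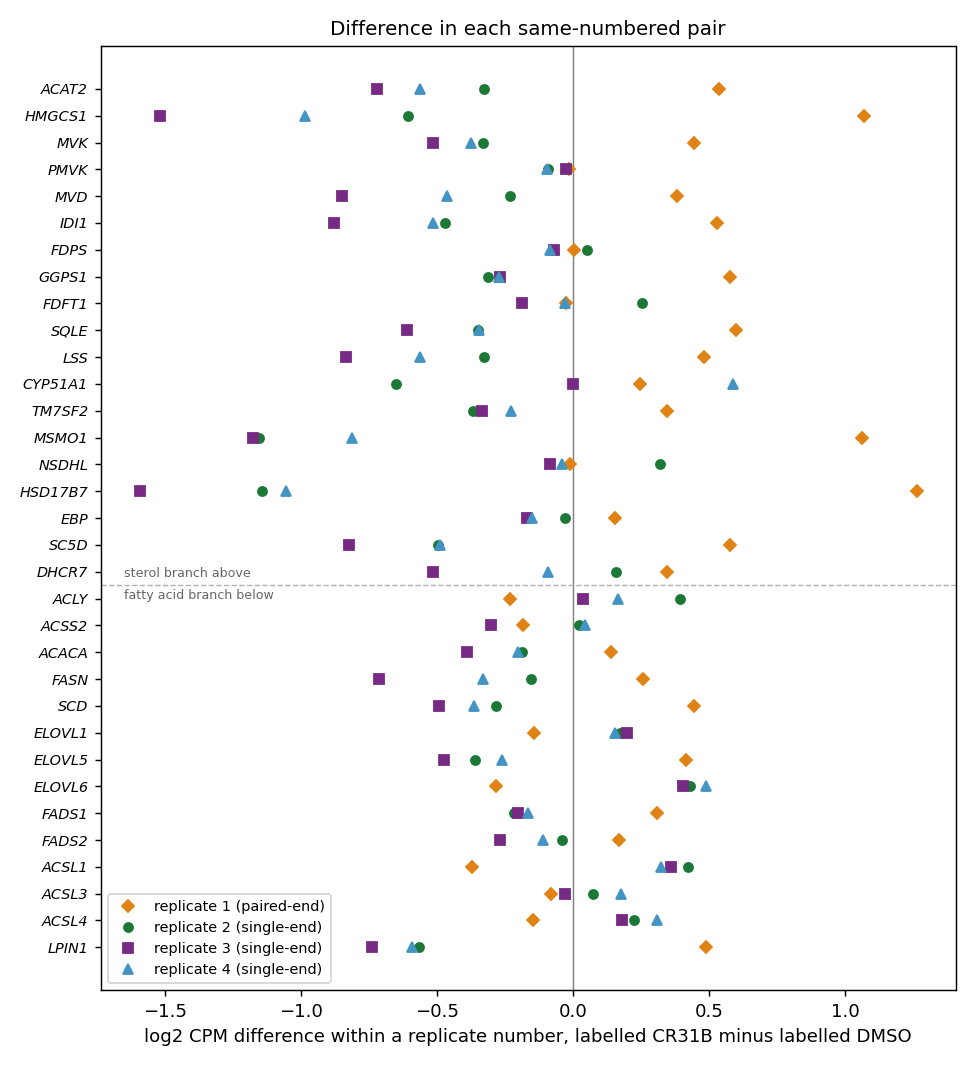
Log2 CPM difference, labelled CR31B minus labelled DMSO, in each same-numbered pair for the 33 enzymes; symbols give the replicate number, and replicate 1 is the paired-end pair. In 30 of 33 genes the replicate 1 symbol has the sign opposite to the fold change of replicates 2 to 4.

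Genes around both branches were counted in replicates 2 to 4 by the same edgeR test. By that test 23.8% of all tested genes rose and 17.6% fell. Of 18 tested regulators of the SREBP pathway 3 rose and 3 fell, with a median of 0.04. INSIG1, the sterol-sensing retention protein and itself an SREBP target, had 32.4, 22.3 and 28.9 CPM in CR31B replicates 2 to 4 and 110, 95.2 and 85.4 CPM in DMSO. Its groups were far apart, and it fell by 1.80 on the log2 scale with an adjusted p of 3.99e-06 (edgeR), more than any of the 33 enzymes. In replicate 1 INSIG1 had 120 CPM in the library labelled CR31B and 34.1 CPM in that labelled DMSO. MBTPS1, the protease that first cuts SREBPs, fell by 0.44, and NR1H2, the oxysterol receptor LXR beta, rose by 0.43. SREBF2, the gene of SREBP2, fell by 0.33 (adjusted p 0.0096, edgeR). SREBF1, the gene of SREBP1, had 0.08 and did not pass (adjusted p 0.673, edgeR). Their log2 differences in replicate 1 were 0.39 and -0.05 in that order. SREBF1 and SREBF2 fall outside the naming rule and were added after their values were seen.

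Of 30 other tested enzymes of fatty acid and glycerolipid synthesis 4 rose and 5 fell, with a median of -0.09. DGAT2, which makes triacylglycerol, fell by 0.75 at low counts of 2.35 to 2.64 CPM with CR31B, and AGPAT2, which makes phosphatidate, rose by 0.51. LPIN2, the relative of LPIN1, rose by 0.32 with an adjusted p of 0.00201 (edgeR), while LPIN1 fell; LPIN2 falls outside the naming rule and was chosen after its value was seen. Of 18 genes of the non-sterol branches of the mevalonate pathway, such as prenyltransferases and coenzyme Q enzymes, 3 rose and 4 fell (median -0.07). Of 11 tested enzymes of other sterol metabolism 1 rose and 3 fell (median 0.03), and of 19 of fatty acid oxidation 1 rose and 4 fell (median 0.04). The medians of these 5 lists lay between -0.09 and 0.04, beside -0.41 for the sterol branch. Over all tested genes 23.8% rose and 17.6% fell in these libraries. MBTPS1, NR1H2, DGAT2, AGPAT2 and LPIN2 had log2 differences of 0.57, -0.55, 0.63, -0.39 and -0.39 in replicate 1, each opposite in sign to replicates 2 to 4. With all 8 libraries as labelled 0 genes of the 5 lists passed and 0 had an unadjusted p under 0.05 (edgeR), with list medians from -0.04 to 0.04.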

How the data were processed

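Gene expression was measured in 8 libraries of IMR32 cells, 4 per group, grouped by the treatment label. The deposited values are raw, unnormalised counts by Ensembl gene, in a single table covering every library. The submitters' processing notes name FastQC 0.11.7, STAR 2.7.2b, edgeR 3.36.0, limma 3.50.3 and the build GRCh38, without saying what each was used for. The counting tool and annotation are not given in the sources used here, and the name of the deposited table holds the word reverse, which may mean the strand setting. Per the labels' protocols a small RNA library kit was used, while polyadenylated RNA is named as the molecule. Gene names and coordinates come from GENCODE release 29 by identifier (58515 of 58787 matched), and promoters from RefSeq.

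Testing used the two-sided quasi-likelihood functions glmQLFit and glmQLFTest of edgeR 4.0.16 under R 4.3.3, after filterByExpr with a minimum count of 10 and TMM scaling, with Benjamini-Hochberg adjustment over all tested genes and a threshold of 0.05. One fit took all 8 libraries as labelled with sequencing layout as covariate, one the 6 single-end libraries, and one the interaction of treatment with layout. Pair differences were taken on log2 CPM, using 1 as the prior count. The depth, at least 43687828 counts per library, leaves counting error small for all members but CYP51A1, and intervals from depth would cover counting error only.

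The members and lists were chosen with earlier results of these data known. The naming rule gave values in every library to up to 6 called members per branch with the largest absolute log2 fold change, and to members called against the direction of their branch. Library values of MVK, NSDHL, ACLY, FADS1 and ELOVL1 were given outside this rule, and so was the NSDHL promoter. From each further list up to 3 called genes could be named. SREBF1, SREBF2 and LPIN2 were named beyond that. Alternatives were the replicate block, GC and length offsets (loess span 0.3, values for 99.9% of tested genes), scaling by RLE, by upper quartile or by total count, no filter and a filter of 1 CPM, DESeq2 1.42.0, limma voom (3.58.1) and each library left out. Replicate numbers were taken as pairs for the pair differences and the replicate block, while the main fit did not use them. Within the single-end libraries deviations from the group means correlated at 0.206, 0.384 and 0.157 for replicates 2, 3 and 4. Over all 8 libraries these replicates gave -0.078, 0.159 and -0.108, and replicate 1 gave -0.527. Libraries with different numbers were not compared in this way, so the values do not establish the pairing. The smallest mean chi-square between 2 libraries was 7.32, where 1 is expected of 2 draws from the same library. No 2 libraries thus looked like repeat draws of 1 library, and each was counted as its own replicate. This value cannot tell separate cultures from separate libraries of 1 culture.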

Additional observations from a re-analysis of the deposited data

Results flagged for a closer look

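The difference between treatments in replicate 1 departed from that in replicates 2 to 4 by the interaction test in 19 of 33 genes (edgeR, adjusted p 2.9e-06 to 0.0394). Of all tested genes 42.5% passed the same test, so the departure is not particular to these enzymes. The interaction is given as the log2 difference of replicate 1 minus that of the other pairs. Among these 19 genes the value was positive for the 16 that fell in replicates 2 to 4. In the sterol branch it was 2.51 for HSD17B7, 2.11 for MSMO1, 2.07 for HMGCS1, 1.17 for SC5D, 1.14 for IDI1, 1.05 for ACAT2, 1.03 for SQLE, 1.03 for LSS, 0.87 for MVD, 0.86 for MVK and 0.86 for GGPS1. In the fatty acid branch it was 1.12 for LPIN1, 0.82 for SCD, 0.77 for ELOVL5, 0.50 for FADS1 and 0.40 for ACACA, and -0.74 for ACSL1, -0.72 for ELOVL6 and -0.39 for ACSL4, the 3 genes that rose.

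Single libraries also lay far from the other 3 with the same label. The measure was Dixon's ratio, in which the distance of the extreme library from its neighbour is divided by the spread of all 4. Of 70 groups examined 11 passed the 95% critical value, where chance gives about 3.5 (1 in 20), and in 8 of the 11 the distant library was replicate 1. Among libraries labelled CR31B replicate 1 was distant for MSMO1 (0.932), MVK (0.882) and ACSL1 (0.833). Among libraries labelled DMSO replicate 1 was distant for LPIN1 (0.925), ACSL1 (0.913), IDI1 (0.854), SC5D (0.844) and MVD (0.830). CR31B replicate 3 was distant for ELOVL1 (0.973) and ACSS2 (0.883), and CR31B replicate 4 for ACSL4 (0.899). All of these ratios come from the same 8 libraries, so they are not independent.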

How the results depend on the processing

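Of the fits of the 8 libraries as labelled, only those that dropped a library of replicate 1 gave calls. The 6 single-end libraries alone gave 20 members and 6901 genes. With each library left out, 0 to 20 members were called. Genes called were 6920 without CR31B replicate 1, 6906 without DMSO replicate 1 and 0 in the other 6. With either library of replicate 1 left out, the layout covariate took up the remaining one, so those fits also rest on the single-end libraries. In replicates 2 to 4, of the 20 called members 0 changed sign and 15 kept their call under all 16 alternatives. With the replicate block, which takes same-numbered libraries as pairs, 24 members and 8540 genes were called. Those members were 12 sterol lower, 7 fatty acid lower and 5 fatty acid higher. Fatty acid enzymes called lower ranged from 3 (without DMSO replicate 4) to 6 as libraries were left out. The fatty acid minus sterol difference of medians was 0.305, and 0.343 with means, 0.28 with GC and length offsets, 0.275 with those and the replicate block, and 0.254 to 0.336 as libraries were left out. The interaction passed for 19 to 24 members under 3 other scalings and 2 other filters, chosen after seeing the data. Upper quartile scaling moved the median of all genes from -0.01 to -0.10, and the share of calls that were higher was 40%, against 57.5% with TMM, 43.1% with total counts, 49.9% with GC and length offsets and 47.8% with those and the block.

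Uncalled members near 0 changed sign. With upper quartile scaling FDFT1 was -0.0702, CYP51A1 -0.0798, NSDHL -0.0316 and ACSL3 -0.0213. With total count scaling they were -0.0529, -0.0627, -0.0143 and -0.00411 in that order. With GC and length offsets PMVK was 0.061, FDPS 0.0196, FDFT1 -0.000581, CYP51A1 -0.0319 and ACSL3 -0.109. With those and the replicate block they were 0.0615, 0.0166, -0.0187, -0.0463 and -0.112. FDFT1 was -0.0102 with the 1 CPM filter, which dropped CYP51A1, and CYP51A1 was -0.0363 with voom. With each library left out FDFT1 ranged from -0.106 to 0.155, NSDHL from -0.00604 to 0.122, FDPS from -0.0937 to 0.0342, DHCR7 from -0.297 to 0.0719 and CYP51A1 from -0.261 to 0.247. The cause of these shifts was not tested.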
